A study of Mus musculus with 2 samples.

Results

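The mt-rich cells of the retinal pigment epithelium (RPE) described here were cells in which transcripts of the mitochondrial genome made up an unusually large share of the RNA counted. They were chosen from the deposited single-cell count matrices of both mice by 3 measured values: at least 500 genes detected, at least 5% of the unique molecular identifiers (UMIs, one per captured RNA molecule) from Ttr, and 2.5 to 5% of the UMIs from genes whose names begin with mt-. Ttr encodes transthyretin, a carrier of thyroid hormone and retinol that the RPE makes in quantity. By this rule there were 577 mt-rich cells among 5838 in all, 383 of 2844 in mouse R1 and 194 of 2994 in mouse R2. They made up 13.5% of the R1 cells (95% interval 12.2 to 14.8%) and 6.48% of the R2 cells (5.62 to 7.42%; exact Clopper-Pearson intervals, which cover counting error only). The reference was the 3704 mt-poor RPE cells of the same mice, 1681 in R1 and 2023 in R2, with the same Ttr bound and under 1.5% mt- UMIs. The 1389 cells from 1.5 to under 2.5% and the 76 cells above 5% lay on either side of the mt-rich cells and were kept apart.

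The study profiled RPE cells of 2 male mice of the inbred strain C57BL/6J at postnatal day 36 (4 to 5 weeks by the labels), with no genetic or drug comparison. Each library pooled the cells of both eyes of 1 mouse after trypsin release of RPE sheets, mechanical disruption and a sort for calcein-positive, DAPI-negative (viable) cells, and was made with a 10x Genomics 3′ kit. The 2 libraries are from separate animals, so both classes of cells were compared within each mouse. R1 held 26034378 UMIs (median 8380 per cell) and R2 29732969 UMIs (median 7963 per cell). The mice shared 12 cell barcodes, and 1 mt-rich cell of R1 and 4 of R2 carried one of these.

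Mitochondria keep a small circular genome that encodes 13 proteins, all of them subunits of the respiratory chain or of ATP synthase, while every other mitochondrial protein is encoded in the nucleus and imported. Both strands of this genome are read as long precursors that are cut into single messages. Most of these messages are polyadenylated, which is why an assay primed on poly(A) captures them. The RPE, a pigmented monolayer that recycles visual chromophore, engulfs photoreceptor outer segment tips and moves ions and nutrients between retina and choroid, is rich in mitochondria and relies on oxidative metabolism. The mt- share of a cell is also widely used as a measure of cell quality in single-cell data, and the study itself set cells above 5% aside.

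Because the assay counts 3′ ends, the last annotated bases of the genes that carried most mt- UMIs are shown. Those of mt-Nd6, whose share differed between the classes, and mt-Co1, whose end recurs elsewhere in the annotation, are added. Where the mt-Nd6 message itself ends was not tested. The sequences are the last 30 bases of the sense strand of these single-exon protein-coding genes in GENCODE M21 (GRCm38, the build of the count tables). Capitals mark the stop codon, or the single T that polyadenylation completes to a stop codon where the message ends within it. They lie at chrM:3678-3707 (mt-Nd1, complex I subunit), chrM:11515-11544 (mt-Nd4, complex I subunit), chrM:15259-15288 (mt-Cytb, cytochrome b of complex III), chrM:6843-6872 (mt-Co1, the catalytic subunit of complex IV), all on the plus strand, and chrM:13552-13581 on the minus strand (mt-Nd6, complex I subunit).
mt-Nd1: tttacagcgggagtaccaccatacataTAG
mt-Nd4: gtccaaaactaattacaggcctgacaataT
mt-Cytb: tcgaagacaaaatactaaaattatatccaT
mt-Co1: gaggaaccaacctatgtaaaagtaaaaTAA
mt-Nd6: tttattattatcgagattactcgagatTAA

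The mt-rich cells carried 1.13 times as many mt- UMIs as the mt-poor cells in R1 and 1.51 times as many in R2, but far fewer UMIs of all other genes. Their median was 130 mt- UMIs per cell against 115 in R1, and 168 against 111 in R2. Their median of non-mitochondrial UMIs was 3907 against 10608 in R1 and 4890 against 9866 in R2, or 0.368 and 0.496 of the mt-poor value (mean ratio 0.432 ± 0.0900, SD, n = 2 mice). The mt- share that chose the cells has the total UMIs in its denominator, so this difference in depth is in part what the rule used and is given as a description. Within the Ttr-rich cells, the rank correlation between the mt- share and the non-mitochondrial UMIs was -0.493 over 2773 cells of R1 and -0.276 over 2973 cells of R2, with both measures read from the same cells. No test was run on these ratios.

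**Figure D1:**
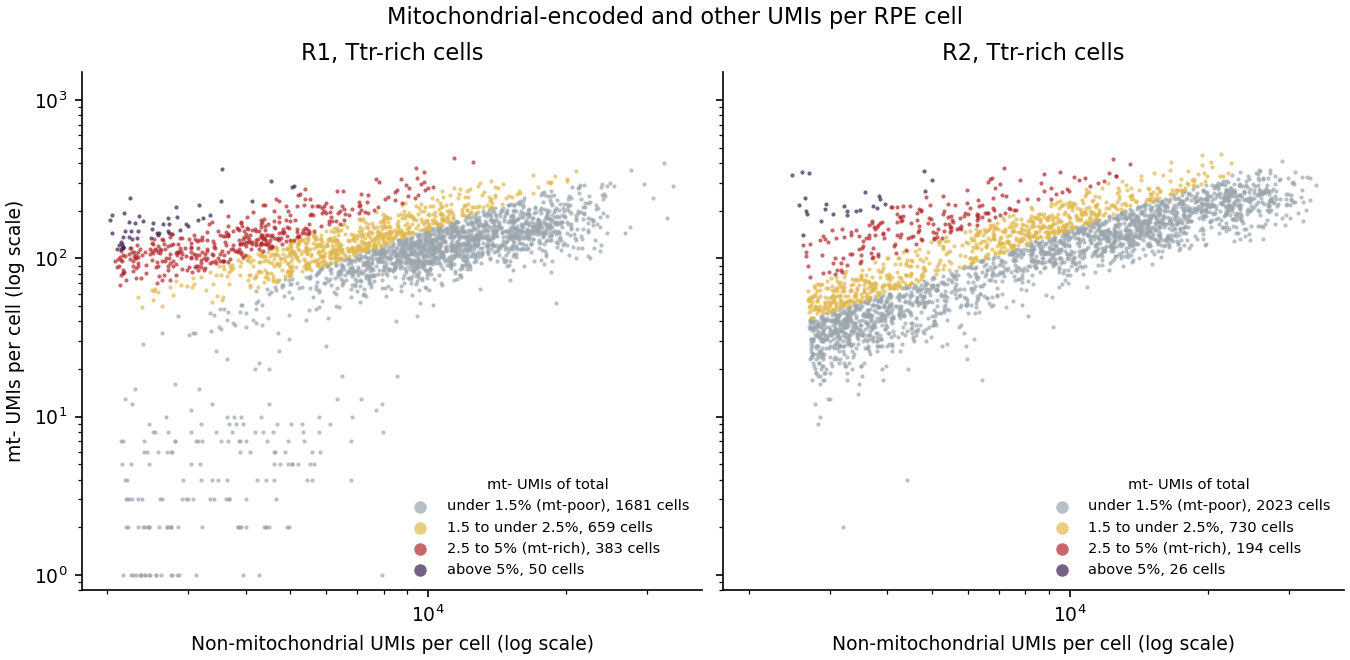
mt- UMIs (y axis, log scale) against non-mitochondrial UMIs (x axis, log scale) of each Ttr-rich cell of R1 (left) and R2 (right), coloured by class of mt- share; 13 mt-poor cells with no mt- UMI are not drawn. The mt-rich cells (red, 383 and 194) lie at the upper left, at the mt- UMIs of deep mt-poor cells and at a fraction of their other UMIs, and R1 has a group of shallow mt-poor cells with few mt- UMIs (186 cells under 0.5%) of which R2 has 20.

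At equal depth the difference in gene number was small. After each cell was thinned at random to 2000 non-mitochondrial UMIs, the median was 850 genes in mt-rich and 874 in mt-poor cells of R1, and 799.5 and 820 genes in R2, so that the ratio was 0.974 ± 0.00174 (SD, n = 2 mice). Unthinned, the medians were 1279 against 2431 genes in R1 and 1346 against 2088 genes in R2. Against mt-poor cells of like depth the order turned: the matched mt-poor cells had medians of 800 genes in R1 and 775 genes in R2. Matching was within 0.1 on the log10 scale where a partner was left, and in R1 it was loose, with a median of 4609 non-mitochondrial UMIs in the matched mt-poor against 3709 in the mt-rich cells. The matched mt-poor cells of R1 had a median of 28.5 mt- UMIs and those of R2 a median of 54.5. In R1 169 of the 354 matched mt-poor cells had under 0.5% mt- UMIs, against 3 of 194 in R2, so every value against the matched cells of R1 rests in good part on such cells, described below. The Ttr share, which the rule bounded below, had a median of 10.8% in mt-rich and 11.3% in mt-poor cells of R1, and 13.4% and 12.9% in R2. Cells next to the bound of 2.5% were close in depth in R1 and less so in R2. In R1 the 41 cells at 2.4 to under 2.5% mt- UMIs had a median of 5101 non-mitochondrial UMIs and the 26 cells at 2.5 to under 2.6% had 5051, while in R2 the 21 and 20 such cells had 5228 and 6477. At the upper bound, the 12 cells of R1 at 4.8 to 5% had a median of 2691 non-mitochondrial UMIs and the 9 cells above 5 to 5.2% had 2491. Among cells with 2.5 to 5% mt- UMIs, none had a Ttr share from 4 to under 5%, and 5 cells of R1 and 2 of R2 had one from 5 to under 6%.

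The mt-rich cells expressed the markers of the RPE. Rgr, Rdh5, Rpe65 and Rlbp1, which act in or beside the visual cycle, were the 4 most abundant of the 10 RPE markers. Levels below are UMIs per 10000 non-mitochondrial UMIs other than Ttr, after thinning and summing over the cells of a class in a mouse. Rpe65, the isomerase that makes 11-cis retinol, stood at 51.2 in mt-rich and 55.3 in mt-poor cells of R1, and at 58.9 and 58.1 in R2. Best1, a chloride channel of the basolateral membrane and the only RPE marker with too few UMIs to test, had 3 UMIs in the mt-poor cells of each mouse and none in the mt-rich cells. Markers of other cell types ranged from near 0 to abundant. The 8 rod markers summed to 0.118 in mt-rich and 0.0908 in mt-poor cells of R1, and to 0.0298 and 0.0199 in R2, and the 8 microglia or macrophage markers summed to 0.0295 and 0.239 in R1 and 0.0595 and 0.0625 in R2, with C1qc the most abundant. The cone, fibroblast, endothelial and red blood cell lists each summed to at most 0.327 in the mt-rich cells. The Muller glia list summed to 211 in mt-rich and 258 in mt-poor cells of R1 and to 200 and 238 in R2, but it holds genes that the RPE expresses too, such as Glul (glutamine synthetase) at 11.6 and 10.8 and Rdh10 (a retinol dehydrogenase) at 22.6 and 25.7 in the mt-rich cells, while Aqp4 and Gfap, which define these glia, had no UMI. The pericyte list summed to 2.403 in mt-rich and 3.17 in mt-poor cells of R1 and to 2.14 and 3.18 in R2, most of it Acta2, a smooth muscle actin, which fell (log2FC -0.81 ± 0.13). Pdgfrb, a receptor that marks pericytes, rose on 9 and 6 UMIs in the mt-rich cells (0.0370 to 0.133 and 0.0454 to 0.179, log2FC 1.74 ± 0.56), and the part of such cells in the other values was not tested. Cells with UMIs of 3 or more markers of 1 other cell type numbered 3 of 383 mt-rich and 69 of 1681 mt-poor cells in R1, and 3 of 194 and 63 of 2023 in R2. The classes differed in UMIs per cell, and the part of this in these counts was not tested. Without these cells 421 genes were called higher and 727 lower.

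The mt- genes with the most UMIs had nearly the same shares in both classes. In the mt-rich cells of R1, mt-Cytb gave 39.2% of the mt- UMIs, mt-Nd4 29.5% and mt-Nd1 19.5%; in R2 they gave 39.2%, 25.8% and 24.5%. In the mt-poor cells the same genes gave 40.0%, 28.0% and 18.8% in R1 and 39.4%, 24.8% and 24.1% in R2. Together these 3 genes held 88.3% of the mt- UMIs in mt-rich cells of R1 and 89.5% in R2. The mice differed more from each other in mt-Nd1 and mt-Nd4 than the classes did. Relative to non-mitochondrial UMIs, mt-Nd1 was 3.50-fold higher in mt-rich cells in R1 and 3.18-fold in R2, mt-Nd4 3.56-fold and 3.25-fold, and mt-Cytb 3.31-fold and 3.11-fold, a rise that the rule fixed as a sum and that these genes shared alike.

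One gene stood apart within the sum. mt-Nd6, whose message is the only one of the 13 read from the other strand, gave 44 of 55526 mt- UMIs in mt-rich cells of R1 (0.0792%, 95% interval 0.0576 to 0.106%) and 371 of 190208 in mt-poor cells (0.195%, 0.176 to 0.216%). In R2 it gave 12 of 35105 (0.0342%, 0.0177 to 0.0597%) and 184 of 241570 (0.0762%, 0.0656 to 0.0880%). Its share in the mt-rich cells was thus 0.406 of that in the mt-poor cells in R1 and 0.449 in R2, and its level per non-mitochondrial UMI rose only 1.37-fold and 1.40-fold. mt-Nd5, whose 3′ end lies opposite that of mt-Nd6, had share ratios of 0.817 and 0.877. The intervals are exact and cover counting error only.

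Several mt- genes had few UMIs, and their 3′ ends also stand elsewhere in the annotation. The ends of mt-Co1, mt-Co2, mt-Atp6, mt-Co3, mt-Nd3 and mt-Nd4l recur almost unchanged in pseudogenes on chromosome 1: over 90% of the 50-base words in their last 300 bases were also found in another annotated gene, among them Gm29216 (chr1:24615706-24616197), which holds all of those of mt-Co1. These 6 genes together had 955 UMIs in mt-rich and 3590 in mt-poor cells of R1, most of them from mt-Co1, which gave 1.56% and 1.71% of the mt- UMIs. The end of mt-Nd2 was shared in part with Gm13339 (31.9% of words), and those of mt-Nd1, mt-Nd4, mt-Nd6 and mt-Cytb not at all. None of these pseudogenes is among the genes listed in the count matrices. Levels of the 6 genes are uncertain, and the effect of these copies on the counts was not tested. Most of the mt- share in these tables came from mt-Cytb, mt-Nd4, mt-Nd1, mt-Nd2 and mt-Nd5.

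**Figure D2:**
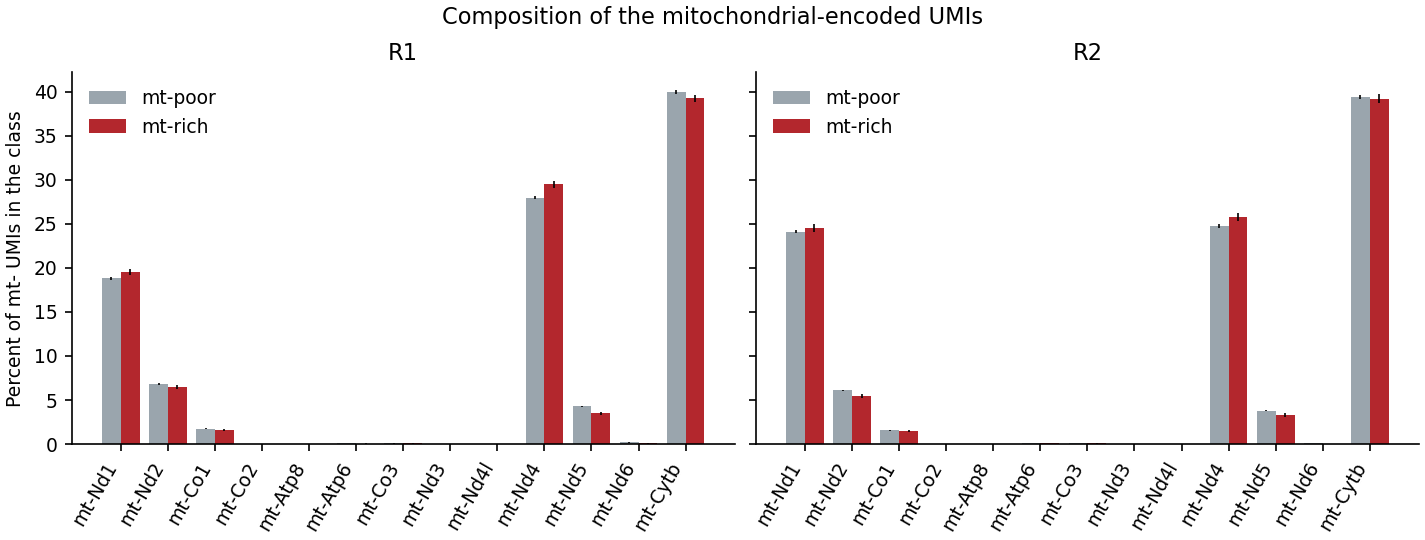
Percent of all mt- UMIs given by each of the 13 mt- genes (y axis) in mt-poor (grey) and mt-rich (red) cells of R1 (left) and R2 (right); error bars are exact 95% intervals for counting error. mt-Cytb stands at 39.2% in the mt-rich cells of both mice, and the paired bars of the most abundant genes are close in height, while mt-Nd6, at 0.0792 against 0.195% in R1, is too low to see.

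To ask which nuclear genes differed beside the mt- share, the thinned UMIs were summed per mouse and class and fitted with edgeR's quasi-likelihood test, with mt- genes and Ttr left out and the mouse as a block. Of 9002 genes tested, 684 were called higher in mt-rich cells and 976 lower at a Benjamini-Hochberg adjusted p under 0.05 (7.6% and 10.8%, or 18.4% in all), and 1656 of these 1660 moved the same way in both mice. The p-values rest on 4 sums with 1 residual degree of freedom and on a spread shared by all genes, which edgeR estimated here as common to all of them, so that adjusted p-values as small as 3.99e-65 arose; they are best read beside the values in each mouse. DESeq2 called 85 higher and 290 lower (0.944% and 3.22%, or 4.17% in all). The trimmed-mean (TMM) scaling centred the fold changes of all tested genes at a median of 0.03 on the log2 scale. Without it the median was 0.18, with 968 genes higher and 550 lower (10.8% and 6.11%). The log2FC values below are relative to the TMM centre unless said otherwise, while levels and summed levels carry no TMM scaling. The TMM factors were 1.081 in mt-rich against 0.964 in mt-poor cells of R1, and 1.026 against 0.935 in R2. A level can thus be slightly higher in mt-rich cells where the log2FC is below 0.

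Nuclear-retained noncoding RNAs rose. Malat1, a long noncoding RNA (lncRNA) that stays in the nucleus, rose from 143 to 346 in R1 and from 176 to 349 in R2, with log2FC 0.99 ± 0.07 (SE) and adjusted p = 3.55e-41. Both mt-rich sums lay above both mt-poor sums. Against the matched mt-poor cells its log2FC was 1.17 (adjusted p = 0.00474), a value that the R1 cells under 0.5% mt- UMIs, low in Malat1, enter; with the reference from 0.5% and no matching it was 0.94. Among the 54 and 60 mt-rich cells with at least 6000 non-mitochondrial UMIs its log2FC was 0.49 (adjusted p = 0.195). Neat1, the scaffold of paraspeckles, rose from 0.491 to 1.47 and from 0.346 to 0.774 (log2FC 1.28 ± 0.22), and Kcnq1ot1, the imprinted antisense RNA of the Kcnq1 locus, from 0.767 to 1.77 and from 0.639 to 1.25 (log2FC 0.96 ± 0.18). Gm42418, a lncRNA gene that overlaps a ribosomal RNA copy on chromosome 17 and whose counts are uncertain for that reason, rose from 3.65 to 10.9 in R1 and from 2.79 to 11.96 in R2 (log2FC 1.68 ± 0.09). In all, 4 of the 5 RNAs tested from this list of 13, the uncertain Gm42418 among the 4, rose and none fell, beside 7.6% and 10.8% of all genes tested, while Gm26917 stood at log2FC 0.69 (adjusted p = 0.206). Among cells with at least 6000 UMIs 1 of the 5, Gm42418, was called higher and none lower, beside 0.0247% of all genes each way. The list summed to 361 against 148 in R1 and 363 against 179 in R2, nearly all of it Malat1.

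The other genes with the greatest rise were mixed in function. Serpine3, a member of the serpin family, rose from 0.719 to 4.79 in R1 and from 0.849 to 3.10 in R2 (log2FC 2.20 ± 0.13, adjusted p = 1.61e-55), the largest rise among genes at a mean of at least 0.5. Pmel, the fibril protein of melanosomes, rose from 0.424 to 1.71 and from 0.173 to 1.04 (log2FC 2.06 ± 0.22), on 116 and 35 UMIs in the mt-rich cells, and was not called against the matched cells (1.65, adjusted p = 0.0689). After thinning it was detected in 8.88% of the mt-rich cells of R1 and 6.19% of those of R2, against 4.58% and 2.47% of the mt-poor cells. Clcn7, the chloride-proton exchanger of lysosomes, rose from 0.242 to 0.943 and from 0.216 to 0.863 (log2FC 1.83 ± 0.27). The remainder of the 12 genes with the largest rise, past these 3, Gm42418 and Neat1, lay between log2FC 1.28 and 1.48: Tmem259, Plxna1 (a semaphorin receptor), Gramd1b (a sterol transfer protein), Slc7a5 (a transporter of large neutral amino acids), Trpm1 (a cation channel), Adamtsl4 and Crocc (the rootlet protein of cilia). Of these Plxna1 (adjusted p = 0.105), Trpm1 (0.0721) and Crocc (0.0888) were not called against the matched cells. For each of these 12 genes both mt-rich sums lay above both mt-poor sums, as was so for 35.9% of all genes tested. Cox8b, a tissue-restricted subunit of cytochrome oxidase, was picked after its values were seen: it rose from 7.43 to 19.7 in R1 and from 3.09 to 7.68 in R2 (log2FC 1.22 ± 0.09).

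**Figure D3:**
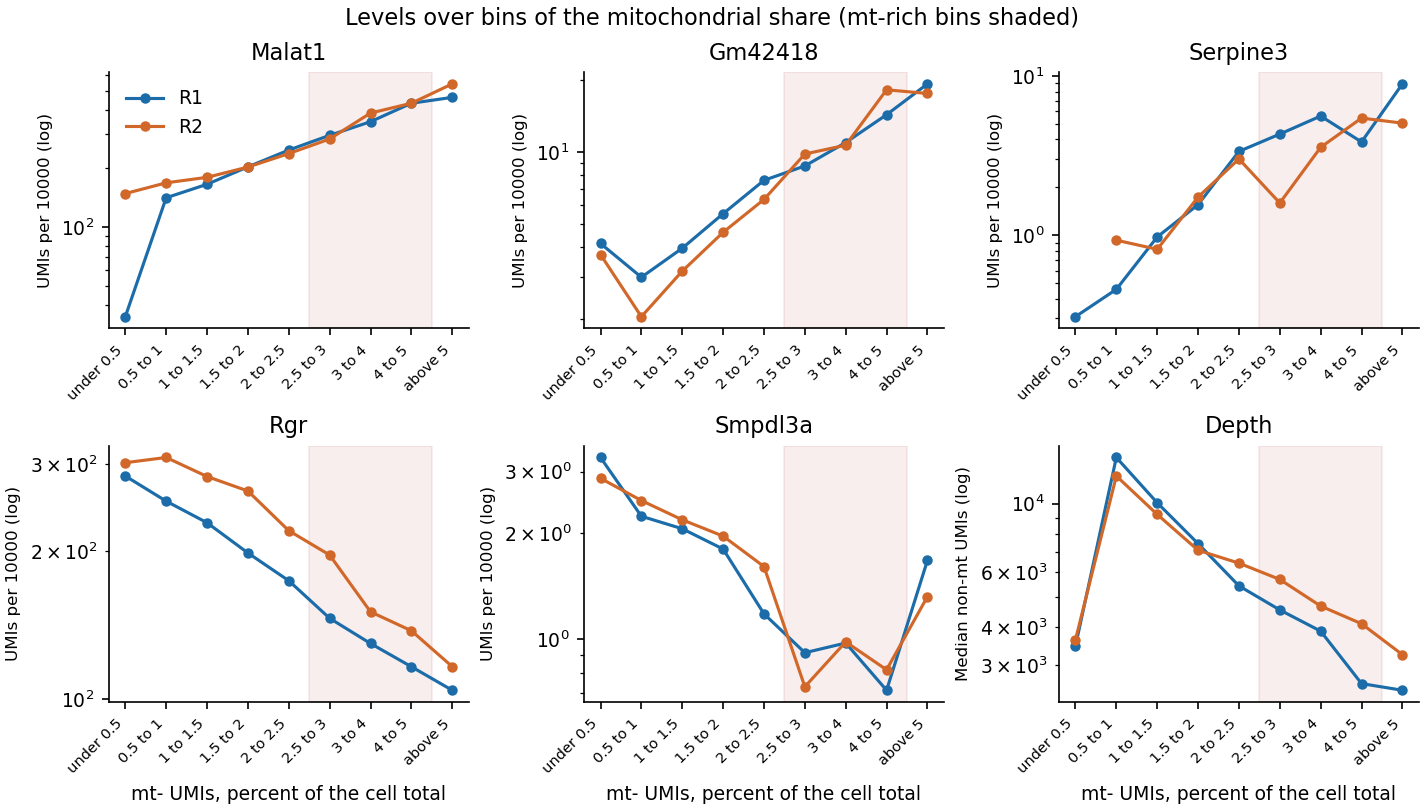
Levels of Malat1, Gm42418, Serpine3, Rgr and Smpdl3a (UMIs per 10000, log scale) and the median non-mitochondrial UMIs per cell (log scale) over 9 bins of the mt- share (x axis, percent of all UMIs of a cell) in R1 (blue) and R2 (orange); the mt-rich bins are shaded and a level of 0 is not drawn. Malat1 climbs to 431 at 4 to 5% in both mice while Rgr falls to 116 and 138, and depth falls alongside from the bin at 0.5 to 1% on.

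Over bins of the mt- share from 0.5% up, Malat1 rose and Rgr fell from each bin to the next in both mice, below the bound of 2.5% as well as above it. Malat1 stood at 141 in R1 and 169 in R2 at 0.5 to 1% mt- UMIs, at 204 and 203 at 1.5 to 2%, at 295 and 283 at 2.5 to 3%, and at 431 in both mice at 4 to 5%. Rgr went from 252 and 309 at 0.5 to 1% to 116 and 138 at 4 to 5%. Serpine3 did not move evenly: in R2 it stood at 3.01 at 2 to 2.5%, at 1.59 at 2.5 to 3% and at 5.45 at 4 to 5%, and in R1 at 5.61 at 3 to 4% and 3.86 at 4 to 5%. Pmel was uneven too. In R1 it stood at 0.778 at 2 to 2.5%, 2.41 at 2.5 to 3% and 1.00 at 4 to 5%. In R2 it stood at 0.527, 0.0664 and 2.59 in the same bins. The median non-mitochondrial UMIs fell over the same bins, from 14084 to 2622 in R1 and from 12273 to 4092 in R2, so depth moved together with these levels, and its part in them was not tested. In the lowest bin the mice parted: under 0.5% mt- UMIs, R1 had 186 cells with a median of 5 mt- and 3466 other UMIs and Malat1 at only 34.8, whereas R2 had 20 cells with a median of 13.5 mt- UMIs and Malat1 at 149. These cells belong to the mt-poor reference. Without them, 368 genes were called higher and 623 lower of 8689 (4.24% and 7.17%), and Malat1 had a log2FC of 0.94.

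Of 11 visual cycle genes tested 7 fell, beside 10.8% of all genes. Rgr, an opsin of the RPE that aids the supply of 11-cis retinal, had the highest level of the list and fell from 243 to 133 in R1 and from 292 to 168 in R2 (log2FC -0.98 ± 0.07, adjusted p = 2.95e-40), a fall by nearly the same amount against the matched cells (-0.96, adjusted p = 0.00474) and among cells with at least 6000 UMIs (-0.84, adjusted p = 0.0410). Rdh5, the 11-cis retinol dehydrogenase, fell from 98.0 to 82.0 and from 106 to 88.5 (log2FC -0.41 ± 0.07), and Rlbp1, the retinaldehyde carrier, from 46.7 to 41.3 and from 50.5 to 41.4 (log2FC -0.38 ± 0.07). Rrh, another RPE opsin, fell from 5.73 to 3.94 and from 6.22 to 4.20 (log2FC -0.70 ± 0.11). Of the 13 genes listed 11 were tested, none rose, and the median log2FC was -0.29 beside 0.03 over all genes. Against the matched cells 2 of 11 were lower and none higher (4.95% and 5.07% of all genes). With DESeq2 6 of 11 were lower (3.22% of all genes), and among cells with at least 6000 UMIs 1 of 11 was (0.0247%), with none higher in either. Without TMM 5 of 11 were lower and none higher, beside 6.11% and 10.8% of all genes. The median was then -0.14, beside 0.18 over all genes. Lrat, the acyltransferase that esterifies retinol, stood at 15.4 against 15.9 and 16.7 against 17.3 (log2FC -0.19, adjusted p = 0.0826). For Rpe65 (log2FC -0.19, adjusted p = 0.0466) the sums overlapped, and the call was lost against the matched cells (adjusted p = 0.280). It was also lost in the edgeR fit without TMM (log2FC -0.04, adjusted p = 0.688).

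Of 12 pigment genes 5 rose and 2 fell, beside 7.6% and 10.8% of all genes tested. Beside Pmel, Gpnmb, a melanosomal and lysosomal glycoprotein, rose from 1.49 to 3.21 in R1 and from 0.945 to 2.08 in R2 (log2FC 0.97 ± 0.14). Dct, the dopachrome tautomerase, rose from 9.05 to 14.7 and from 7.40 to 9.61 (log2FC 0.40 ± 0.09), and Mlana from 2.24 to 2.89 and from 1.45 to 2.44 (log2FC 0.37 ± 0.13). Gpr143, the pigment cell receptor that limits melanosome size, fell from 1.04 to 0.575 and from 0.906 to 0.774 (log2FC -0.74 ± 0.21), and Slc24a5, an exchanger of the melanosome pathway, fell as well (log2FC -0.44 ± 0.13). All 12 genes were tested and their median was 0.40, while Tyr, the first enzyme of melanin synthesis, stood at log2FC 0.12 (adjusted p = 0.541) and Tyrp1 at -0.03 (adjusted p = 0.918). Against the matched cells 1 of 11 was called, Gpnmb, beside 10.0% of all genes. Markers of melanocytes were low: Pax3 had no UMI in either class of either mouse, Kit stood at 0.0737 and 0.0893 in mt-rich cells (5 and 3 UMIs), and Sox10, at 1.28 in the mt-rich cells of both mice, rose from 0.682 and 0.653 (log2FC 0.79 ± 0.19). What part such cells might have in the pigment values was not tested.

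Nuclear genes of the respiratory chain, the partners of the mt- subunits, held more genes called lower than higher in each complex under TMM scaling. In complex I, 1 of 36 tested genes rose and 7 fell, with a median log2FC of -0.14: Ndufb9 fell from 5.30 to 3.38 in R1 and from 5.45 to 4.02 in R2 (log2FC -0.70 ± 0.11), whereas Ndufv3 rose from 12.3 to 17.997 and from 12.1 to 16.5 (log2FC 0.35 ± 0.08). Complex II, which has no mt- subunit, had 3 of 4 genes lower and a median of -0.62, led by Sdhd, a membrane anchor, from 2.63 to 1.52 and from 3.34 to 1.76 (log2FC -1.001 ± 0.14). In complex III 3 of 9 fell, led by the iron-sulfur protein Uqcrfs1 (log2FC -0.89 ± 0.12), and 1 rose, Uqcr11 (0.22 ± 0.08). In complex IV 3 of 15 fell, led by Cox7a2l (log2FC -0.86 ± 0.20), and none of the list rose; Cox8b, the subunit described above that rose in both mice, is not on that list. In complex V 6 of 15 fell, among them the catalytic beta subunit Atp5b (log2FC -0.64 ± 0.09), and Atpif1, the inhibitor of the synthase, rose (0.28 ± 0.11). Over all genes 7.6% rose and 10.8% fell. Without TMM the medians of complexes I, IV and V were 0.01, 0.02 and 0.04, still below the 0.18 over all genes (0.03 with TMM). The calls then came to 7 higher and 3 lower in complex I, 3 and 2 in complex IV, and 3 and 4 in complex V, beside 10.8% and 6.11% of all genes. Against the matched cells 2 of 36 complex I genes, 2 of 4 complex II genes, 1 of 9 complex III genes, 1 of 14 complex IV genes and 3 of 15 complex V genes were lower and none higher, beside 4.95% lower. The summed levels that follow carry no TMM scaling and so are not on the scale of the log2FC values. That of complex I was slightly higher in mt-rich cells, 221 against 215 in R1 and 230 against 213 in R2. Its most abundant gene, Ndufa13, stood at log2FC 0.11 (adjusted p = 0.393). Complex II summed to 7.15 against 9.49 in R1 and 7.86 against 10.6 in R2. For complex III the sums were 71.1 against 65.4 and 71.9 against 64.2. Complex IV gave 144 against 146 and 152 against 145, and complex V 102 against 105 and 105 against 103.

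Of 26 genes that maintain and read the mitochondrial genome 19 were tested, 17 were not called, 1 rose and 1 fell: Ppargc1a, a coactivator of mitochondrial biogenesis, rose from 0.225 to 0.649 in R1 and from 0.236 to 0.357 in R2 (log2FC 1.03 ± 0.32, adjusted p = 0.0106), and Mtpap, the mitochondrial poly(A) polymerase, fell on 5 and 2 UMIs in the mt-rich cells (log2FC -1.68 ± 0.58, adjusted p = 0.0268). Ppargc1a was not called against the matched cells (log2FC 1.32, adjusted p = 0.0650). None of the list was called with DESeq2 (19 tested) or against the matched cells (9 tested). Without TMM 1 of the 19 was higher and none lower, so that Mtpap was not called there. The most abundant gene of the list, Slirp, which stabilizes mt- messages, stood at log2FC 0.11 (adjusted p = 0.649). Of mitochondrial dynamics and mitophagy genes 3 of 16 fell and none rose, with Mff, a receptor for the fission machinery, at log2FC -1.15 ± 0.18, and 1 of 15 fell against the matched cells. Of import and chaperone genes 3 of 20 fell and none rose, among them the chaperonin Hspd1 (-0.67 ± 0.23), and these calls were lost against the matched cells, with DESeq2 and without TMM, where 1 gene was higher. Of mitochondrial ribosomal proteins 17 of 73 fell and none rose, with a median of -0.32. These counts stand beside 10.8% lower over all genes tested. Most of the ribosomal calls were lost against the matched cells (2 of 64 lower, beside 4.95% of all genes), with DESeq2 (2 of 73, beside 3.22%) and without TMM (4 lower and 2 higher, beside 6.11% and 10.8%). The median of this list stayed nearly the same, at -0.33 against the matched cells and -0.34 with DESeq2 (0.01 and -0.02 over all genes). Without TMM it was -0.17, beside 0.18 over all genes.

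Among enzymes of energy metabolism, fatty acid oxidation and ketogenesis had 10 of 21 genes lower and none higher (median -0.46), and the tricarboxylic acid cycle 7 of 17 lower and 1 higher (median -0.51), both beside a background of 10.8% lower. Sucla2, a subunit of succinyl-CoA ligase, fell from 1.90 to 1.09 in R1 and from 2.22 to 0.774 in R2 (log2FC -1.21 ± 0.16), Mdh1, which is cytosolic, from 10.3 to 7.81 and from 11.7 to 8.72 (log2FC -0.56 ± 0.09), and Etfa, which takes electrons from acyl-CoA dehydrogenases, from 2.505 to 1.64 and from 2.72 to 1.90 (log2FC -0.72 ± 0.14). Ogdh, of the oxoglutarate dehydrogenase complex, rose (log2FC 0.70 ± 0.17). In glycolysis 6 of 15 tested genes fell, among them Pkm (log2FC -0.67 ± 0.10) and Aldoa (-0.37 ± 0.08), and the glucose transporter Slc2a1 rose (0.28 ± 0.09). Against the matched cells 1 of 20 fatty acid oxidation, 5 of 17 tricarboxylic acid cycle and 3 of 13 glycolysis genes were called lower, beside 4.95% of all genes tested there. The medians of these lists there were -0.43, -0.40 and -0.25, beside 0.01 over all genes.

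**Figure D4:**
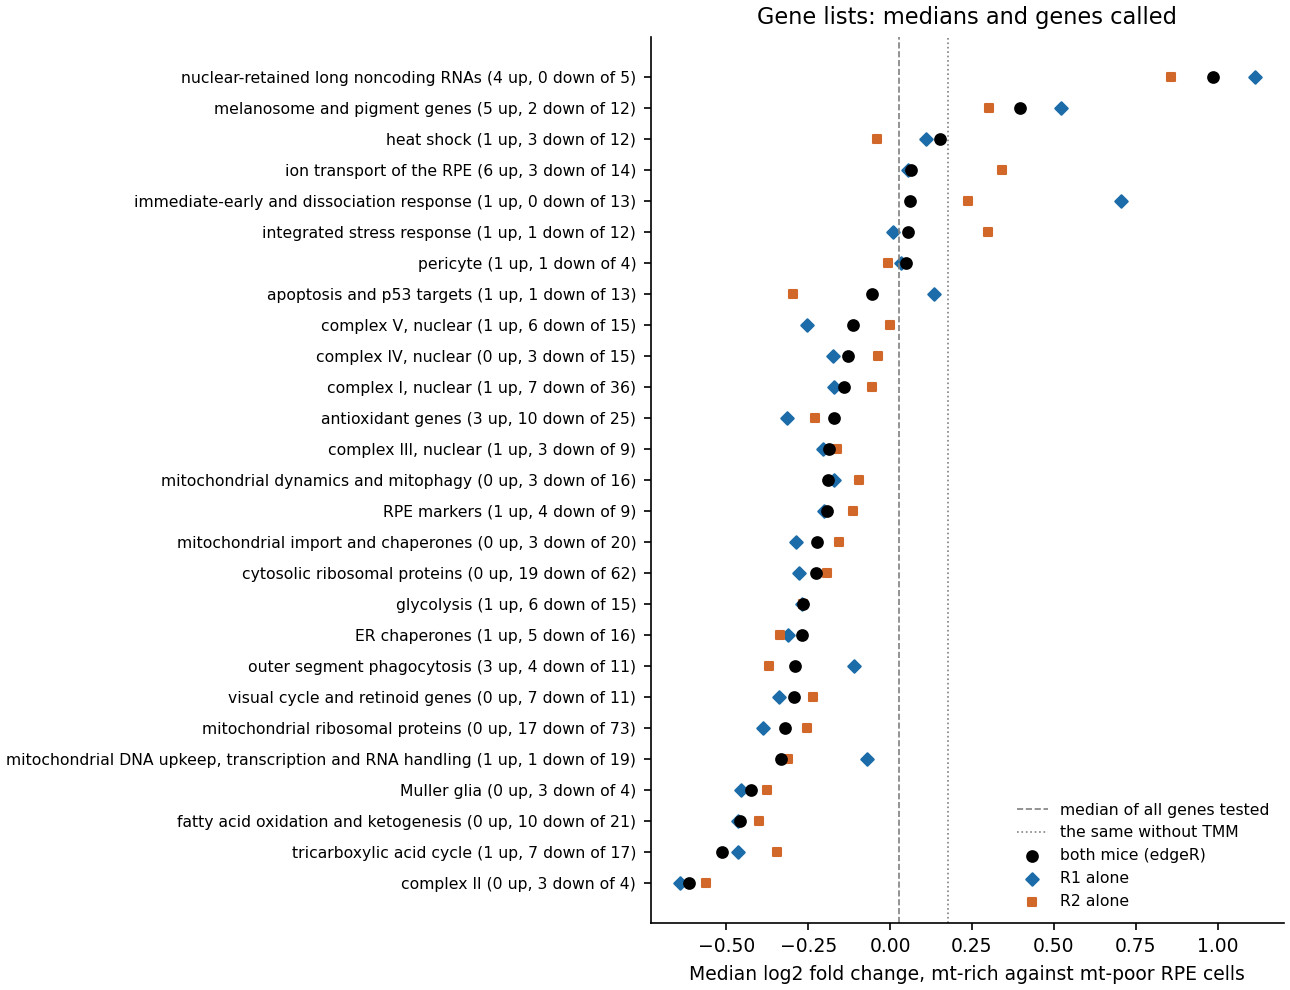
Median log2 fold change (x axis) of the tested members of each gene list (rows, with the genes called higher and lower of those tested) for both mice together (black), R1 alone (blue) and R2 alone (orange); vertical lines mark the median of all genes tested with TMM (0.03, dashed) and without (0.18, dotted). The nuclear-retained RNAs (0.99) and pigment genes (0.40) stand to the right, and complex II, the tricarboxylic acid cycle and fatty acid oxidation to the left at -0.62 to -0.46.

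Of 25 redox genes tested 3 rose and 10 fell, beside 7.6% and 10.8% of all genes. Against the matched cells 3 of 20 were higher and 3 lower (5.07% and 4.95% of all genes), and with DESeq2 3 of 25 were higher and 4 lower (0.944% and 3.22%). The metallothioneins Mt1 and Mt2, which bind zinc and copper, rose from 159 to 259 and from 36.7 to 68.2 in R1 and from 143 to 220 and from 29.1 to 50.4 in R2 (log2FC 0.52 ± 0.07 and 0.70 ± 0.07). Sod1, the cytosolic superoxide dismutase, rose from 1.38 to 3.64 and from 1.35 to 2.38 (log2FC 1.02 ± 0.13). Those that fell included Gpx4, which reduces lipid peroxides (28.9 to 17.98 and 26.4 to 21.1, log2FC -0.66 ± 0.08), Prdx1 (-0.68 ± 0.08) and the mitochondrial Prdx3 (-1.01 ± 0.21). Sod2, the superoxide dismutase of the matrix, stood at log2FC -0.09 (adjusted p = 0.642).

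Lists of stress and damage genes held 1 to 4 called genes each. Of 12 integrated stress response genes tested, Atf4, its central transcription factor, rose from 0.632 to 1.52 in R1 and from 0.593 to 0.982 in R2 (log2FC 0.91 ± 0.19), Phgdh of serine synthesis fell (log2FC -0.50 ± 0.11), and Asns and Chac1 had no UMI in these 4 sums. Of 13 immediate-early genes tested, Jun rose from 0.407 to 0.752 and from 1.29 to 1.93 (log2FC 0.57 ± 0.19), with sums that overlapped between the mice, and its value was -0.06 among cells with at least 6000 UMIs. Fos stood at log2FC 0.45 (adjusted p = 0.467). Of heat shock genes Hspa1a rose (1.52 to 3.26 and 3.37 to 5.30, log2FC 0.72 ± 0.12, with sums that overlapped between the mice) and 3 of 12 fell, Hsp90aa1, Dnaja1 and Hspb1, the last on 3 and 0 UMIs in the mt-rich cells. Of 13 apoptosis and p53 genes tested, Bcl2l1, which encodes the survival factor Bcl-xL, rose (0.63 ± 0.21), Bad, which opposes it, fell (-0.72 ± 0.18), and Bax stood at log2FC 0.06 (adjusted p = 0.850). The called genes were 2 of 12, 1 of 13, 4 of 12 and 2 of 13 in these lists, beside 18.4% of all genes tested. Against the matched cells none of 6 immediate-early and none of 7 apoptosis genes was called, beside 10.0% of all genes. There 1 of 9 heat shock genes was higher and 1 lower, and 1 of 7 stress response genes was higher. With DESeq2 none of 13 immediate-early and none of 13 apoptosis genes was called, beside 4.17% of all genes. Of 12 heat shock genes 1 was then higher and 1 lower, and of 12 stress response genes 1 was lower.

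Of 16 chaperones of the endoplasmic reticulum 5 fell and 1 rose, beside 10.8% and 7.6% of all genes tested. Hspa5 (BiP), the chief chaperone of the reticulum, fell from 5.89 to 3.10 in R1 and from 3.63 to 2.05 in R2 (log2FC -1.04 ± 0.12), and Pdia3, a disulfide isomerase, from 2.84 to 1.40 and from 2.07 to 1.07 (log2FC -1.15 ± 0.15). Calr, a calcium-binding chaperone of the same compartment, rose from 4.19 to 6.50 and from 3.67 to 5.86 (log2FC 0.50 ± 0.10). Among the 12 genes with the largest fall at a mean of at least 0.5 were Yipf5 and Cnih1, both of transport between the reticulum and the Golgi, Tusc3 of the oligosaccharyltransferase, and Erlec1, a lectin of the reticulum. Yipf5 had the largest fall, from 0.851 to 0.310 and from 0.747 to 0.238 (log2FC -1.67 ± 0.27). Smpdl3a, a secreted phosphodiesterase, fell from 2.26 to 0.899 and from 2.30 to 0.833 (log2FC -1.53 ± 0.16). The others were Ggh, Itfg1, Qdpr, Tmem70, Rab28, Ywhaq and Eif4a2, between log2FC -1.45 and -1.28. Tmem70 (adjusted p = 0.0957), Rab28 (0.0722) and Erlec1 (0.0731) were not called against the matched cells. For each of these 12 genes both mt-rich sums lay below both mt-poor sums, as was so for 21.0% of all genes tested.

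Among genes of RPE transport and phagocytosis, calls went both ways. Kcnj13, the apical potassium channel Kir7.1, fell from 15.4 to 10.7 in R1 and from 13.6 to 10.4 in R2 (log2FC -0.61 ± 0.09), and the carbonic anhydrase Car14 fell from 35.7 to 28.3 and from 34.5 to 27.8 (log2FC -0.47 ± 0.08). Car12, another carbonic anhydrase, rose from 3.78 to 6.15 and from 3.36 to 5.27 (log2FC 0.53 ± 0.10), as did Slc4a5, a bicarbonate transporter (0.44 ± 0.10), and the chloride channel Clcn2 (0.88 ± 0.18), while Atp1b1, a sodium pump subunit, fell (-0.36 ± 0.09). In all 6 of 14 rose and 3 fell, beside 7.6% and 10.8% of all genes. Against the matched cells 3 of 13 were higher and 1 lower (5.07% and 4.95% of all genes), but with DESeq2 2 of 14 were higher and 3 lower (0.944% and 3.22%). Of 11 phagocytosis genes tested, the receptors Mertk (log2FC 0.67 ± 0.21) and Itgb5 (0.74 ± 0.17) and the motor Myo7a (0.62 ± 0.22) rose, and the lysosomal Ctsd, Ctsb, Lamp1 and Lamp2 fell by 0.37 to 0.65. With DESeq2 3 of the 11 were lower and none higher, and against the matched cells 2 of 9 were higher and 2 lower, beside the shares of all genes just given for each. Cytosolic ribosomal proteins had 19 of 62 tested lower, none higher and a median of -0.23, beside 10.8% of all genes lower, with Rps4x at log2FC -1.19 ± 0.24, and Rpl41, the most abundant, at -0.25 ± 0.08. Against the matched cells 4 of 52 were lower, beside 4.95% of all genes. Ribosomal protein genes have many near-identical copies, so the division of their reads is uncertain.

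Genes that rose and genes that fell differed in length. The longest annotated transcript had a median of 4715 bases for genes called higher, 2093 for genes called lower and 3372 for all genes tested, and the median number of exons was 13, 6 and 8. Among the 2772 genes with a mean of at least 0.5, the median log2FC over 5 groups of like size, ordered by transcript length, went from -0.25 and -0.40 in the 2 shortest groups to 0.0025 in the next to longest and 0.30 in the longest, from 4460 bases. In the longest group 184 genes were called higher and 59 lower, and in the second-shortest 19 and 251. The trend was present in each mouse, with 0.23 in R1 and 0.31 in R2 for the longest group, and against the matched cells (0.49). By GC content such groups ran from -0.27 to -0.02. Genes are not independent replicates, and these medians are a description. What part transcript length had in the values of the gene lists was not tested.

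**Figure D5:**
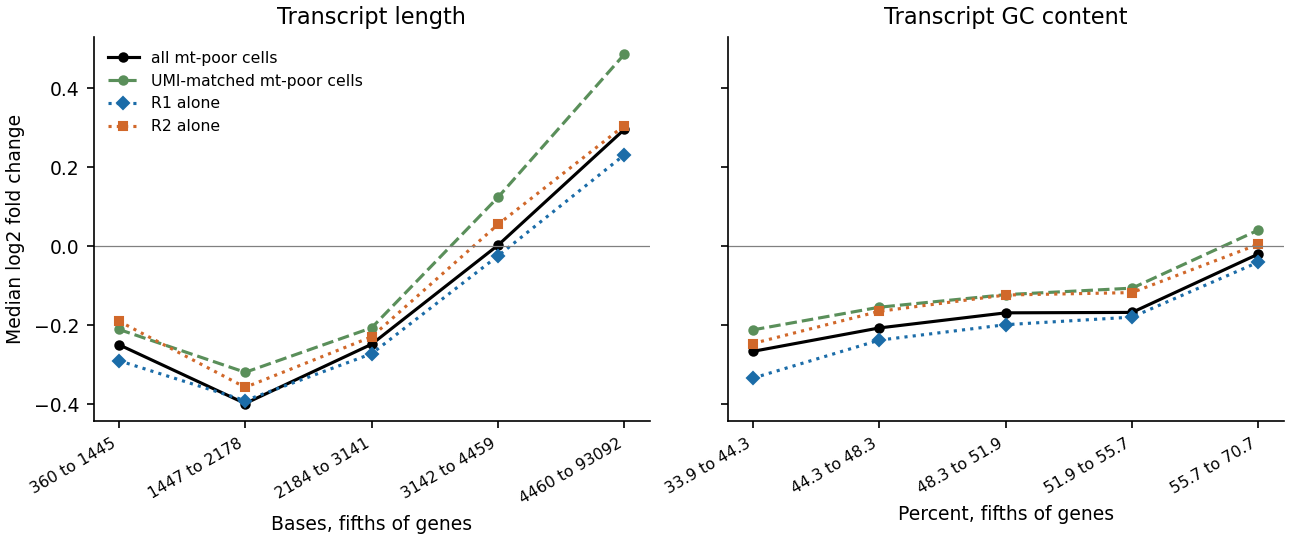
Median log2 fold change, mt-rich against mt-poor (y axis), of the 2772 genes with a mean of at least 0.5 UMIs per 10000, in 5 groups of like size by transcript length (left, bases) and of transcript GC content (right, percent), for both mice against all mt-poor cells (black), against UMI-matched mt-poor cells (green), and in R1 (blue) and R2 (orange) alone. The medians rise from the second-shortest group (-0.40 against all mt-poor cells) to the longest (0.30), and less with GC content.

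How far the calls depended on the reference was followed along the scale of the mt- share. Against the UMI-matched mt-poor cells, 273 genes were called higher and 267 lower of 5389 (5.07% and 4.95%), 522 of them shared with the first comparison in the same direction, and all 1489 genes called first and tested again kept their sign. Against the middle class, 142 genes were higher and 247 lower of 7507 (1.89% and 3.29%), and the middle class itself differed from the mt-poor cells in 68 and 92 of 9043 genes (0.752% and 1.02%). The 76 cells above 5% differed from the mt-poor cells in 21 genes higher and 281 lower of 8375 (0.251% and 3.36%, or 3.61% in all), and from the mt-rich cells in 1 of 3332 (0.03%), a comparison with few cells. These comparisons share cells, so their counts are set side by side and not compared by a test. Among cells with at least 6000 non-mitochondrial UMIs, 4 genes were called of 8084 (0.0495%): Gm42418 and Cox8b higher (0.0247%), and Rgr and Sostdc1, a secreted antagonist of BMP and WNT signals, lower (0.0247%). Of the 1587 genes called first and tested there 1505 kept their sign, with 910 genes at an unadjusted p under 0.05. That comparison holds 54 mt-rich cells of R1 and 60 of R2, and Cox8b and Sostdc1 were picked after their values were seen.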

How the data were processed

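The libraries R1 and R2 were analysed, 1 per mouse. The deposited values are whole-number UMI counts per gene and cell, which the authors made with bcl2fastq 2.20.0.422 and Cell Ranger 1.2.0 on GRCm38 (mm10), before their correction for free RNA, doublet removal and filters, none of which was repeated here; no doublet caller was run. Totals were 26034378 and 29732969 UMIs. The labels and the study's methods differ on the kit version.

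Each cell was thinned to 2000 non-mitochondrial UMIs (seed 1) and counts were summed per mouse and class into 4 sums. Genes other than mt- genes and Ttr were tested with edgeR 4.0.16 (R 4.3.3; filterByExpr, TMM, quasi-likelihood test, mouse as a block) at a Benjamini-Hochberg adjusted p under 0.05; DESeq2 1.42.0 was an alternative, as were other thinning, filters, references and bounds. The test was also run on simulated data. The block pairs both classes of the same animal, whose differences between mice correlated at r = 0.362 across 2772 genes (on log2 of the level + 0.1). Named genes were called or abundant members of 34 lists and the 12 largest called changes in each direction at a mean of at least 0.5 per 10000. A few list members are not reported here. Members and lists were chosen with earlier results of these data known. Transcript features and sequences came from GENCODE M21.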

Additional observations from a re-analysis of the deposited data

How the results depend on the processing

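The number of genes called between mt-rich and mt-poor cells, 1660, was smaller by over 1.5 times with the UMI-matched reference (540), with the cells from 1.5 to under 2.5% as reference (389), with Ttr at least 10% (424), with DESeq2 (375), and with 2 alternatives chosen after seeing the data, cells of at least 6000 UMIs (4) and a reference from 0.5 to under 1.5% (991). Fewer cells enter all of these but DESeq2. The prior degrees of freedom of edgeR, which set how strongly each gene is held to the shared spread, differed too. They were infinite in the main fit, with the reference from 1.5 to under 2.5% and with mt-rich from 3%. They were 10.41 with the matched reference, 6.76 with Ttr at least 10%, 7.456 in cells of at least 6000 UMIs and 10.94 with the reference from 0.5%. Without cells holding markers of other types they were 11.88. What part each had was not tested. The genes called higher, 684, came to 273, 142, 139, 85, 2 and 368 under the listed alternatives in turn, and to 450 with mt-rich from 3%, 421 without cells holding markers of other types and 433 with no filter on low counts. The genes called lower, 976, came to 267, 247, 285, 290, 2 and 623, and to 550 with no TMM. The share of calls that were higher was 41.2%, 28.96% with no filter, 22.7% with DESeq2 and 63.8% with no TMM. Without thinning, at 4000 UMIs, with another seed, with 6 sums, with Ttr as a share of non-mitochondrial UMIs and without the 4% of cells with the most UMIs, the calls numbered 1409 to 2252. With the mouse not used as a replicate block, 1209 genes were called, 541 higher and 668 lower. The ratio of genes per cell at 2000 UMIs, 0.974, was 1.05 with the matched reference, 0.968 at 4000 UMIs, 0.585 unthinned and 0.978 without the 4% of cells with the most UMIs. With 1 mouse left out it ran from 0.973 to 0.975, and the ratio of non-mitochondrial UMIs from 0.368 to 0.496; counts of calls then have no residual degree of freedom and no test. The mt-rich share of Ttr-rich cells, 13.8% in R1, was 12.3% with Ttr at least 10% and 8.91% from 3% mt- UMIs, and that of R2, 6.53%, was 3.599% from 3%.

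Of the genes named as called, only Jun turned sign under any alternative run, to -0.058 on the log2 scale among cells of at least 6000 UMIs. Of those named with a value that was not called, Bax, Fos, Slirp, Sod2, Tyr, Tyrp1 and Kit did. Bax took -0.10 unthinned, -0.074 at 4000 UMIs, -0.020 against 1.5 to under 2.5%, -0.00085 with Ttr at least 10%, -0.10 in cells of at least 6000 UMIs, -0.0038 with DESeq2, -0.012 with no filter, and -0.30 and 0.27 with R1 or R2 left out. Fos took -0.52 from 3%, -0.0043 in cells of at least 6000 UMIs, -0.048 without the replicate block and -0.26 without R1. Slirp took -0.043 unthinned and -0.11 at 4000 UMIs, Sod2 took 0.033 from 3% and 0.059 with no TMM, and Tyr took -0.015 at 4000 UMIs. Tyrp1 took 0.027 unthinned, 0.13 at 4000 UMIs, 0.12 with another seed, 0.19 with the matched reference, 0.049 with Ttr at least 10%, 0.21 in cells of at least 6000 UMIs, 0.12 with no TMM and 0.0046 without the replicate block. Kit, on 3 to 5 UMIs in mt-rich cells, took fitted values of 0.90, 1.07, 0.44, 0.31 and 0.89 unthinned, at 4000 UMIs, with another seed, with Ttr at least 10% and in cells of at least 6000 UMIs, and 0.077 and -0.50 with R1 or R2 left out. The comparison of cells with at least 6000 UMIs held 54 and 60 mt-rich cells, and the class above 5% held 50 and 26 cells.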

Other observations

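A further 35 cells of R1 and 13 of R2 had 2.5 to 5% mt- UMIs but under 5% of UMIs from Ttr, with median Ttr shares of 0.707% and 0.413%, and entered no comparison. Their summed levels per 10000 non-mitochondrial UMIs, on genes chosen after their values were seen, were 58.4 in R1 and 48.9 in R2 for Mlana, a melanosome protein, 165 and 417 for Ptgds, a prostaglandin D synthase, 7.76 and 5.52 for Pax6, an eye transcription factor, and 6.12 and 13.8 for Pmel. Rpe65 stood at 2.37 and 0.863 in these cells and Malat1 at 206 and 204.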
